A study of Mus musculus with 4 samples.

Results

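Ring1B was mapped by ChIP-seq in E14 mES cells, and the 4872 peaks described here are those of its 10119 peaks that lay more than 4 kb and at most 100 kb from the nearest transcription start site (TSS) of a protein-coding gene. They are called distal peaks here. The distance was measured from the edge of the peak to any annotated TSS of the GENCODE annotation of mm9, so the limits on distance used position alone. The peaks themselves were called on the reads of the Ring1B library, each with a height of at least 31 reads, and not on those of the others. Ring1B reads are therefore high in nearly all of them by choice, and comparisons of Ring1B with another library in these peaks favour Ring1B. Another 3723 peaks lay within 4 kb of a TSS (promoter peaks) and 1524 lay over 100 kb away (desert peaks). E14 is a line of mouse embryonic stem cells of strain 129/Ola. All libraries come from 1 culture condition, the 2i + LIF medium, which holds 1000 U/ml of LIF, 3 μM of CHIR99021 against GSK and 1 μM of PD0325901 against MEK. There is 1 library each of input DNA and of ChIP for Ring1B, Dzip3 and ubH2A. No difference between libraries therefore has a replicate error, no p-value is given, and the intervals cover counting error only. The listed heights in RPM, the reads of a window scaled to the size of the library, imply libraries of 51.8 M (Ring1B), 53.3 M (Dzip3), 67.0 M (ubH2A) and 48.3 M reads (input DNA). These sizes are larger than the depth in uniquely mapped reads given in the study's methods, so that reads with several matches may be among those counted, which bears on every value at a repeated sequence.

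Ring1B, also known as Rnf2, is the catalytic ubiquitin ligase of Polycomb repressive complex PRC1, and it ubiquitylates histone H2A to give the mark ubH2A. Dzip3 is another RING ubiquitin ligase for H2A. In ES cells PRC1 is best known at CpG islands of silent developmental genes, and it also sits at sites away from promoters, such as the distant regulatory elements of those genes. CpG islands are stretches where the dinucleotide CpG, which is depleted from most of the mouse genome, is kept.

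The distal peaks were of unlike kinds, which the sequences at their centres show. The sequences are 200 bases of mm9, plus strand, in lower case with each CpG in capitals, and each is named for the nearest gene. The peaks were taken from those with the highest RPM and no input peak. The first 2 are single-copy, CpG-rich sequence without a Dzip3, ubH2A or input peak, beyond the 3′ end of Otx1 (chr11:21893452-21893651) and in an exon of Scarf2 (chr16:17803136-17803335).
Otx1: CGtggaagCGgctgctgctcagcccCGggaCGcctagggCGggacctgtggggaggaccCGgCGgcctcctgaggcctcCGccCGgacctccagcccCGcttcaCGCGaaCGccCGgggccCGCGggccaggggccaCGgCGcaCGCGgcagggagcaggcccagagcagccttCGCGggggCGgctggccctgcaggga
Scarf2: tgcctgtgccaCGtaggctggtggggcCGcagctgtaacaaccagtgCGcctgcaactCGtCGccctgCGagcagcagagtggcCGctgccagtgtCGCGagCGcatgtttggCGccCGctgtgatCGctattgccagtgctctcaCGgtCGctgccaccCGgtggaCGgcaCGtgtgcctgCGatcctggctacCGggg
The next 2 are tandem repeats, in an intron of Sfxn2 (chr19:46654743-46654942) and between genes near Mchr1 (chr15:81096522-81096721).
Sfxn2: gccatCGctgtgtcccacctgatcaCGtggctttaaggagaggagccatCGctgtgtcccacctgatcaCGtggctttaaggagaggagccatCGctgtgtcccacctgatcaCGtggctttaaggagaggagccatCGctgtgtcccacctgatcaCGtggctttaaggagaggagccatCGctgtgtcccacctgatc
Mchr1: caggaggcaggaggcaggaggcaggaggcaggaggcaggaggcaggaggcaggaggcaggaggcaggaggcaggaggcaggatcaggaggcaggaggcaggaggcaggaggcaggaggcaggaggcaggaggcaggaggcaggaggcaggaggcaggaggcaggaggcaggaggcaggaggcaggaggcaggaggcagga
The last 2 are multicopy sequence with CpGs, from the spacer of the 5S rRNA gene array near Rhou (chr8:126141516-126141715) and from between genes near Tbca (chr13:95512234-95512433).
Rhou: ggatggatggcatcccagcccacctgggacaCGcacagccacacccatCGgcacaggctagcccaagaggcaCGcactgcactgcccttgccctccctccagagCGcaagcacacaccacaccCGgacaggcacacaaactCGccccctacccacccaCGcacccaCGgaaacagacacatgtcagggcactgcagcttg
Tbca: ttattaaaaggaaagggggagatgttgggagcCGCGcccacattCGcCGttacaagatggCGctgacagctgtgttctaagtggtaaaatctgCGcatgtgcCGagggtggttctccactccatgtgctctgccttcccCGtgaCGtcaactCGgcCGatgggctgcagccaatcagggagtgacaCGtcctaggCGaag
The Otx1 window holds 23 CpGs and the Scarf2 window 20, against 0 near Mchr1. At Sfxn2 a unit of 44 bp matched itself at 100% of bases and the window held the E-box CACGTG 4 times, while at Mchr1 a unit of 7 bp matched at 96.4%. Reads from a repeated sequence cannot be assigned to 1 place by the sequence alone.

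These peaks also differed in the reads of the other libraries. At Otx1, a homeodomain factor of the forebrain, the peak (chr11:21892750-21894353) held 935 Ring1B, 42 Dzip3, 64 ubH2A and 10 input reads. Scaled to library size, Ring1B was 87.2-fold over input (95% exact interval 47.2 to 183). The peak at Scarf2, a scavenger receptor gene, held 1329 Ring1B, 98 Dzip3, 160 ubH2A and 17 input reads, which is 72.9-fold over input (45.4 to 126). Both were chosen for a high Ring1B height without a peak of another library, so these ratios describe the choice. An intronic peak of Nfix, a nuclear factor I gene, had a CpG ratio of 0.58 and was chosen in the same way, with 1574 Ring1B, 158 Dzip3, 216 ubH2A and 42 input reads. The Sfxn2 tandem repeat held 510 Ring1B, 115 Dzip3, 108 ubH2A and 33 input reads. The order was different near Slc39a12, where Dzip3 reads outnumbered Ring1B reads. Slc39a12 is a zinc transporter gene, and the peak held 557 Ring1B, 657 Dzip3, 202 ubH2A and 5 input reads. The same held near Tbca, a tubulin folding cofactor, with 618 Ring1B, 840 Dzip3, 420 ubH2A and 3 input reads. Near Mchr1 the peak held 789 Ring1B, 508 Dzip3, 295 ubH2A and 7 input reads. The peak 12.1 kb upstream of 1700034J04Rik held 646 Ring1B, 869 Dzip3, 416 ubH2A and 32 input reads. The peak with no input read among those named lay 7.15 kb upstream of 1700048O20Rik, in a repeat with a unit of 4 bp that matched at 100% of bases, and held 737 Ring1B, 369 Dzip3 and 179 ubH2A reads. With the input set to a floor of 3 reads the ratio to input was 229, and the exact lower 95% limit of the ratio was 186. Among these peaks, Dzip3 reads passed the Ring1B reads near Slc39a12, Tbca and 1700034J04Rik, and the centres of these 3 were repeated sequence.

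Distal peaks lay a median of 22.8 kb from the nearest TSS (quartiles 10.3 and 46.5 kb). Their density fell with distance from 4.41 peaks per Mb of sequenced bases at 4 to 10 kb to 3.12 per Mb at 50 to 100 kb. Over the whole range it was 3.55 per Mb, between the 14.2 per Mb of the promoter zone and the 1.65 per Mb of the deserts. Upstream of the nearest gene lay 39.4% of distal peaks (38.0% to 40.8%), inside it 33.2% (31.9% to 34.5%) and beyond its 3′ end 27.4% (26.1% to 28.7%). Of the sequenced bases at the same distances, 37.3% were upstream, 40.1% inside and 22.6% beyond the 3′ end. The share of peaks inside the nearest gene was thus below the share of bases. The intervals count peaks as independent, but 74 genes with 6 or more distal peaks held 1179 of them.

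Any exonic base was found in 668 distal peaks, which is 13.7% (12.8% to 14.7%). No exonic but an intronic base was found in 1861 (38.2%, 36.8% to 39.6%), and 2343 lay outside annotated genes (48.1%, 46.7% to 49.5%). Counted at the central base, to compare with single positions, the shares were 9.52% exonic, 41.9% intronic and 48.6% intergenic. Sequenced bases at these distances were 3.41% exonic, 46.9% intronic and 49.7% intergenic, so exons held more peak centres and introns fewer than their share of bases. Of the 668 exonic peaks, 391 touched coding sequence, 57 touched untranslated but no coding sequence and 220 touched exons of other transcripts only. Of the intronic peaks, 1255 lay in the nearest protein-coding gene and 606 did not. The listed fold over input had a median of 17.2 in exonic, 9.29 in intronic and 8.60 in intergenic peaks. Their median CpG ratio, the observed over the expected number of CpGs, was 0.47, against 0.15 and 0.17. A Dzip3 peak overlapped 25.3% of exonic, 41.8% of intronic and 46.4% of intergenic peaks. Some peaks called distal from protein-coding genes lay at the start of another gene. Within 1 kb of a TSS of a gene that is not protein-coding lay 284 distal peaks (5.83%), against 3.67% of desert peaks. Of the 284, 87 were at rRNA genes, 73 at pseudogenes, 51 at processed transcripts, 31 at lincRNAs and 25 at miRNAs. Of the 87 at rRNA genes, 56 had Gas8 and 30 had Rhou as nearest gene, beside the 5S rRNA array.

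Sequence content separated the distal peaks into 3 kinds. A peak was counted as repeated when over 50% of the 31-base words in its central 200 bases occurred again in the genome. Copies in the same window counted too, so a tandem repeat found at a single place could be of this kind. The other peaks were counted as single-copy. Repeated peaks numbered 2695, or 55.3% (53.9% to 56.7%). Of windows taken at even steps from the same distances 15.2% were repeated, as were 13.7% of promoter peaks. The share was 70.5% in desert peaks and 42.3% over all Ring1B peaks. The single-copy peaks were split by whether they were CpG-rich, with a CpG ratio over 0.6 and a GC content over 50%. There were 469 single-copy CpG-rich peaks (9.63%, 8.83% to 10.5%) and 1708 other single-copy peaks (35.1%, 33.7% to 36.4%). CpG-rich peaks lay closer to genes, at a median of 12.2 kb, than other single-copy peaks at 18.9 kb and repeated peaks at 27.0 kb. They were also more often exonic, at 47.8%, against 14.6% and 7.2%.

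The kinds differed in the reads of the other libraries. Ring1B reads per length are held near the height that a called peak must reach, so their likeness between the kinds is no result. Per kb of peak, single-copy CpG-rich peaks had a median of 6.26 RPM in the Ring1B library, 1.16 in Dzip3, 1.02 in ubH2A and 0.166 in input DNA. Reads spread evenly over the sequenced genome would give 0.391 RPM per kb in any library. Input DNA was therefore below the even level at CpG-rich peaks, while Dzip3 and ubH2A were above it. Other single-copy peaks had 5.80 RPM per kb for Ring1B, 2.24 for Dzip3, 2.08 for ubH2A and 0.414 for input. Repeated peaks had 6.05 for Ring1B, 4.77 for Dzip3, 4.10 for ubH2A and 0.932 for input. The median ratio of Ring1B to Dzip3, scaled to library size, was 5.30 in CpG-rich, 2.48 in other single-copy and 1.27 in repeated peaks. For Ring1B over ubH2A it was 6.03, 2.69 and 1.57. Median fold over input was 29.6 (quartiles 16.4 and 60.5), 11.6 (6.61 and 20.6) and 6.42 (2.31 and 15.9). How far the reads of the other libraries at repeated peaks come from the placement of reads with several matches was not tested.

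**Figure D1:**
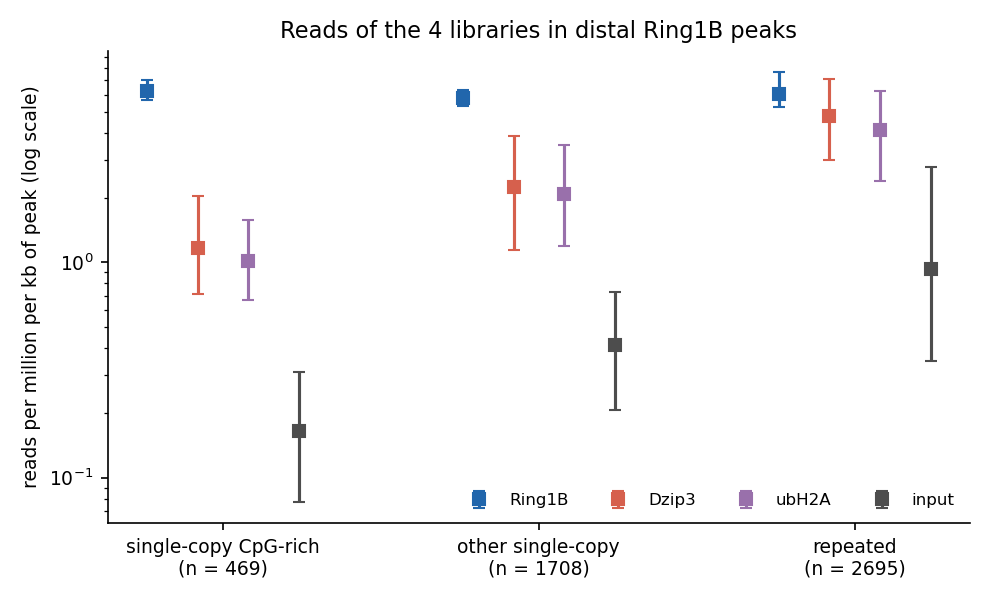
Median RPM per kb of peak (log scale) in the Ring1B, Dzip3, ubH2A and input libraries for the 469 single-copy CpG-rich, 1708 other single-copy and 2695 repeated distal Ring1B peaks, with bars from the lower to the upper quartile over peaks. Ring1B stays between 5.80 and 6.26, while Dzip3 goes from 1.16 to 4.77 and input from 0.166 to 0.932.

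Over all 4872 distal peaks the median number of reads was 84 for Ring1B (quartiles 66 and 132), 52 for Dzip3 (25 and 100), 55 for ubH2A (28 and 111) and 8 for input (3 and 24). Distal peaks took up 1.76% of all Ring1B reads, 1.30% of Dzip3, 1.09% of ubH2A and 0.898% of input reads. With the peaks that overlap an input peak left out these shares were 0.857%, 0.429%, 0.340% and 0.0619%. The listed fold had a median of 9.60 in distal peaks (quartiles 3.95 and 20.8), 25.1 in promoter peaks and 7.96 in desert peaks. The fold was at least 5 in 3413 distal peaks (70.1%, 68.8% to 71.3%), where 77.4% of all Ring1B peaks reached it. Ring1B was at least 2-fold over Dzip3 in 2097 distal peaks (43.0%, 41.7% to 44.4%), against 82.8% of promoter peaks and 55.2% of all Ring1B peaks. Dzip3 was at least 2-fold over Ring1B in 20 (0.411%), near the 0.356% of all Ring1B peaks. Dzip3 reads were at least 5-fold over input in 2163 distal peaks (44.4%), near the 47% of all Ring1B peaks, and ubH2A reads in 1845 (37.9%), near the 40.8% of all.

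A fold below 1 was listed for 263 distal peaks (5.40%), against 5.51% of desert peaks and 4.04% of all Ring1B peaks. Each of the 263 overlapped an input peak. They included 97 peaks on chromosome 8 and 77 on the X chromosome, and 200 of them were repeated. Among the distal peaks 1 near Olfr843 was listed with 0 reads of Ring1B, Dzip3 and ubH2A and 8 input reads. Its listed height was nevertheless at least 31 reads, as for all Ring1B peaks, and the reason for this mismatch was not tested. The peak with the most Ring1B reads, near Gm14496, held 76808 Ring1B, 83335 Dzip3, 42400 ubH2A and 9065 input reads, a listed fold of 7.61.

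A Dzip3 peak overlapped 2035 of the distal peaks (41.8%, 40.4% to 43.2%) by at least 1 bp, a ubH2A peak 2141 (43.9%, 42.6% to 45.3%) and an input peak 1068 (21.9%, 20.8% to 23.1%). At promoters these shares were 10.2%, 11.3% and 6.34%, and in deserts 57.6%, 52.6% and 21.9%. No other library had a peak at 2237 distal peaks (45.9%, 44.5% to 47.3%), while 889 (18.2%) were peaks in all 4 libraries. Over all Ring1B peaks these shares were 58.5% and 13.7%, at promoters 86.2% and 5.29%, and in deserts 31.3% and 19.6%. Among the 3804 distal peaks without an input peak, 29.5% (28.1% to 31%) overlapped a Dzip3 peak and 29.9% (28.5% to 31.4%) a ubH2A peak, still above the 5.13% and 5.65% of promoter peaks counted in the same way.

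The overlap followed the kind of sequence. Single-copy CpG-rich peaks overlapped a Dzip3 peak in 6.18% (4.34% to 8.74%) of cases, a ubH2A peak in 5.33% (3.64% to 7.75%) and an input peak in 1.49% (0.725% to 3.05%). Repeated peaks overlapped them in 60.6% (58.7% to 62.4%), 62.7% (60.9% to 64.6%) and 32.7% (30.9% to 34.4%). Other single-copy peaks lay between, at 21.9%, 24.9% and 10.6%. Peaks present in the Ring1B library alone made up 91.7% of the CpG-rich kind (88.8% to 93.9%) and 23.9% of the repeated kind (22.3% to 25.5%).

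**Figure D2:**
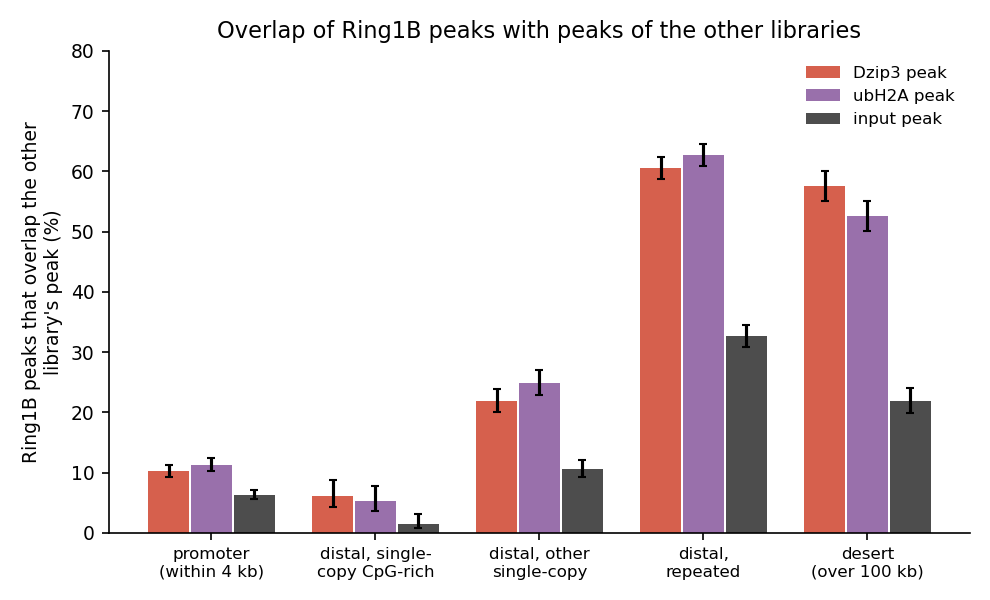
Percentage of Ring1B peaks that overlap a Dzip3, ubH2A or input peak by at least 1 bp, for promoter peaks, the 3 kinds of distal peaks and desert peaks, with 95% Wilson intervals as bars. Single-copy CpG-rich distal peaks (6.18% with a Dzip3 peak) sit beside promoter peaks (10.2%), and repeated distal peaks (60.6%) beside desert peaks (57.6%).

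The median distal peak had a CpG ratio of 0.19 (quartiles 0.06 and 0.40) and a GC content of 52.7%, against 0.65 and 61.5% at promoters. In the central 200 bases the median GC content was 53%, where windows at the same distances had 43%. A window that was CpG-rich occurred at 13.2% of distal peaks (12.2% to 14.1%) and at 0.568% of those windows. Short motifs were searched on both strands of the central 200 bases. CACGTG, the E-box bound by MAX and MGA, was found in 5.73% of distal peaks (5.11% to 6.41%), 5.72% of promoter peaks and 2.07% of windows. GCGGGAA, an E2F site, was found in 1.13% of distal peaks, 3.89% of promoter peaks and 0.354% of windows. Among CpG-rich distal peaks, whether single-copy or repeated, the share was 10% for CACGTG and 3.87% for GCGGGAA. The GC box, GGGCGG, occurred in 6.24% of distal peaks against 1.80% of windows, and CGCG in 13.1% against 2.15%. Both can overlap the E2F letters, and all 4 hold a CpG. The part of base composition in these shares was not tested. CAGCACC, a part of the REST site, occurred in 7.02% against 4.05% and AGGGGGC, a core of the CTCF site, in 2.34% against 1.65%. The octamer ATGCAAAT was found in 1.09% of distal peaks and 1.59% of windows, GAGAGAGA in 2.94% and 3.46%, and the ETS letters CCGGAAGT in 0.185% and 0.135%.

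The distal peaks had 2826 nearest genes, which is 12.6% of the 22380 protein-coding genes. Of these genes 2131 had 1 distal peak, 414 had 2, 207 had 3 to 5 and 74 had 6 or more. The last group held 1179 of the peaks. A promoter Ring1B peak was present at 552 of the nearest genes (19.5%, 18.1% to 21.0%), while 10% of all protein-coding genes had one. Seen from the promoters, 24.7% (22.9% to 26.5%) of genes with a promoter peak were the nearest gene of a distal peak, against 11.3% (10.9% to 11.7%) of genes without.

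By peaks, 1461 of the 4872 (30.0%, 28.7% to 31.3%) had a nearest gene with a promoter Ring1B peak, against 13.4% of the sequenced bases at the same distances. Peaks of the other libraries at 4 to 100 kb were paired with a promoter Ring1B peak nearly as often, at 27.0% for Dzip3, 27.2% for ubH2A and 25.7% for input DNA. Distal Ring1B peaks that overlapped an input peak were paired in 48.2% (45.2% to 51.2%) and the others in 24.9% (23.5% to 26.3%). In the 10 windows of 1 Mb with the most Ring1B peaks 45.6% of distal peaks were paired, and elsewhere 27.0%.

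Pairing depended on distance and on the kind of sequence. Over all kinds it was 42.6% (39.8% to 45.4%) at 4 to 10 kb, 32.3% at 10 to 20 kb, 22.9% at 20 to 50 kb and 24.1% (21.7% to 26.7%) at 50 to 100 kb, whereas the share of bases went from 11.4% to 15.2%. Single-copy CpG-rich peaks at 4 to 10 kb were paired in 60.7% (53.8% to 67.2%), other single-copy peaks in 42.5% (38.2% to 46.9%) and repeated peaks in 35.1% (31% to 39.5%). Beyond 20 kb the intervals of the 3 kinds overlapped, with 25.3%, 22.0% and 23.2% at 20 to 50 kb. These shares count peaks, and 74 genes held 1179 of the distal peaks. Counted by nearest gene at all distances, 39.1% (34.2% to 44.2%) of the genes of single-copy CpG-rich peaks had a promoter Ring1B peak. For other single-copy peaks it was 24.3% (22.0% to 26.7%) of genes and for repeated peaks 14.98% (13.3% to 16.9%), against 10% of all protein-coding genes. The count by gene was not split by distance. Another Ring1B peak lay within 10 kb of 58.2% of CpG-rich and 44.5% (43.1% to 45.9%) of all distal peaks. After peaks within 1 kb of each other were merged, the share over all distal peaks was 25.4%.

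**Figure D3:**
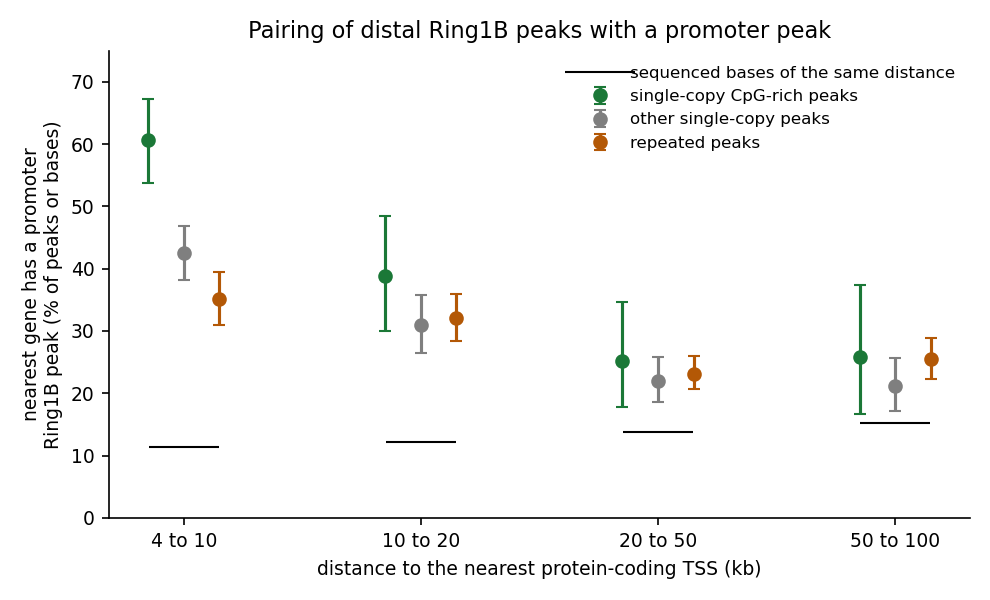
Percentage of distal Ring1B peaks whose nearest gene has a promoter Ring1B peak, by distance to the TSS and kind of sequence, with 95% Wilson intervals as bars and the same percentage over sequenced bases as black lines. At 4 to 10 kb the CpG-rich peaks reach 60.7% against 11.4% of bases, and beyond 10 kb the intervals of the kinds overlap.

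In the 552 genes with both, the strongest promoter peak was higher than the strongest distal peak by RPM in 321 (58.2%, 54.0% to 62.2%), with a median ratio of 1.11. The distal peak was higher by 2-fold or more in 47. Across these genes the Spearman correlation of the 2 heights was 0.21 (n = 552 genes, which share 1 library and are not replicates). The strongest promoter peak of a gene had a median of 0.773 RPM with no distal peak, 0.850 with 1, 1.00 with 2, 1.12 with 3 to 5 and 1.58 with 6 or more. The median number of promoter peaks was 1, 1, 2, 3 and 3.5 in these groups, and the strongest of more peaks is higher by construction. The last group is made of 36 genes with a median promoter CpG ratio of 0.18 and the others have 0.68 to 0.76. Among named peaks with a promoter peak, Tbx15, a T-box gene, had 467 Ring1B, 525 Dzip3, 501 ubH2A and 5 input reads at a distal peak of 4.52 RPM, against 0.947 RPM at its promoter. Cadps2, a gene of dense-core vesicle release, had 403 Ring1B, 519 Dzip3, 260 ubH2A and 31 input reads at 3.88 RPM, against 0.657 RPM at the promoter. Both of these distal peaks were repeated, whereas Otx1 had 3.11 RPM distally and 2.03 RPM at the promoter in single-copy sequence.

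Distal peaks were more frequent at some lists of developmental transcription factor genes than over all protein-coding genes. Homeobox genes outside the Hox clusters were the clearest, with a distal peak at 58 of 122 (47.5%, 38.9% to 56.3%), against 12.6% of all protein-coding genes. Of the 58, 54 also had a promoter peak, and of all 122 genes of the list 98 had one (80.3%). The 138 peaks lay at 12.6 per Mb of the sequence for which these genes are nearest, where all genes had 3.55. Of the 138 peaks, 126 (91.3%) overlapped no peak of another library and 7 were repeated. Over all distal peaks 45.9% overlapped none and 55.3% were repeated. Among all single-copy distal peaks, 91.7% of the CpG-rich and 68.1% of the others overlapped none. Their median reads per kb were 6.06 RPM for Ring1B, 0.848 for Dzip3, 0.80 for ubH2A and 0.243 for input. The most Ring1B reads were held by the 6 distal peaks of Hmx1, with 1451 Ring1B, 172 Dzip3, 207 ubH2A and 42 input reads. Pax2, which acts in kidney and eye, had 5 distal peaks with 1276 Ring1B, 142 Dzip3, 160 ubH2A and 35 input reads. For Pax7, a gene of neural crest and muscle stem cells, 6 distal peaks held 1215 Ring1B, 138 Dzip3, 102 ubH2A and 58 input reads. The 3 distal peaks of Pitx1, a hindlimb gene, held 1165 Ring1B, 84 Dzip3, 126 ubH2A and 18 input reads. These 4 genes were named for their Ring1B reads, so the excess of Ring1B in them is a description.

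T-box genes, factors of mesoderm and other early lineages, had a distal peak at 9 of 17 (52.9%, 31% to 73.8%). Tbx2 led with 3 distal peaks and 1432 Ring1B, 134 Dzip3, 143 ubH2A and 43 input reads. Its strongest lay in an exon 5.05 kb from the TSS (chr11:85651102-85652158), with 2.43 RPM against 1.26 RPM at the promoter. Tbr1, a factor of cortical neurons, had 590 Ring1B, 110 Dzip3, 103 ubH2A and 7 input reads in 2 distal peaks. Mga, which binds the E-box with MAX in a PRC1 variant, had 1 distal peak 23.8 kb upstream (chr2:119698228-119699139), with 379 Ring1B, 66 Dzip3, 56 ubH2A and 10 input reads and a CpG ratio of 1.02. It exceeded the promoter peak of that gene, which held 59 Ring1B reads and no input read.

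Hox genes, which pattern the body axis, had a distal peak at 8 of 40 (20%, 10.5% to 34.8%). The clusters are compact and leave 0.357 Mb for which a Hox gene is nearest beyond 4 kb, and in it the 15 peaks came to 42.0 per Mb. None of the 15 overlapped a peak of another library, as did none of 45.9% of all distal peaks. Of the 15 peaks, 10 were single-copy CpG-rich, a kind that overlapped none in 91.7% over all distal peaks. All 15 were paired, in a list where 33 of the 40 genes (82.5%) had a promoter peak. The 5 distal peaks of Hoxa13 held 705 Ring1B, 71 Dzip3, 114 ubH2A and 32 input reads, and the 1 of Hoxa11 held 466 Ring1B, 56 Dzip3, 40 ubH2A and 6 input reads. These 2 genes are neighbours, and the strongest peaks of both lie between them (chr6:52202590-52203383 and chr6:52203413-52204007).

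Fox genes, forkhead factors, had a distal peak at 15 of 43 (34.9%, 22.4% to 49.8%), with 33 peaks at 7.97 per Mb. Foxd2 held 746 Ring1B, 101 Dzip3, 137 ubH2A and 35 input reads in 6 distal peaks. Foxc2, a gene of mesenchyme and lymphatic vessels, held 629 Ring1B, 101 Dzip3, 171 ubH2A and 10 input reads in 2. At Foxa2, an endoderm factor, 2 peaks held 569 Ring1B, 66 Dzip3, 78 ubH2A and 19 input reads. Sox genes had a distal peak at 4 of 19 (21.1%, 8.51% to 43.3%), and 2.76 peaks per Mb was no more than over all genes. Sox14 had 3 of the 7 peaks, with 909 Ring1B, 55 Dzip3, 138 ubH2A and 24 input reads. Gata genes had a distal peak at 2 of 6. Gata2 held 206 Ring1B, 42 Dzip3, 60 ubH2A and 9 input reads in 2 peaks, and Gata3 held 73, 48, 45 and 0 reads in 1.

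Proneural bHLH genes, which start the making of neurons, had a distal peak at 5 of 19 (26.3%, 11.8% to 48.8%). All 7 peaks were paired, in a list where 14 of the 19 genes (73.7%) had a promoter peak. Neurog1 held 299 Ring1B, 38 Dzip3, 39 ubH2A and 9 input reads in 2 distal peaks, and Atoh1 252, 20, 41 and 18 reads in 1. Genes of secreted signals of the Wnt, Fgf, Bmp and hedgehog families had a distal peak at 12 of 66 (18.2%, 10.7% to 29.1%), with 2.92 peaks per Mb. Bmp10, a heart ligand, led with 1560 Ring1B, 1161 Dzip3, 1075 ubH2A and 73 input reads in 1 peak, and had no promoter peak. Shh was of the other kind, with 761 Ring1B, 71 Dzip3, 87 ubH2A and 20 input reads in 2 peaks, the stronger in an exon 7.74 kb from the TSS (chr5:28784421-28785906).

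The remaining lists were small or rested on few genes. Naive pluripotency genes had a distal peak at 4 of 23 (17.4%, 6.98% to 37.1%), with 1.76 peaks per Mb. Zfp42, known as Rex1, held 75 Ring1B, 5 Dzip3, 3 ubH2A and 2 input reads in 1 peak, and Rex2 held 91, 28, 36 and 39. The peak of Gbx2, which is also a homeobox gene of that list, held 83, 43, 26 and 4 reads. Cell cycle inhibitor genes had one at 2 of 7, namely Cdkn1c with 260 Ring1B, 78 Dzip3, 21 ubH2A and 10 input reads in 3 peaks and Cdkn2c with 158, 11, 11 and 1 in 1. Housekeeping genes had one at 1 of 18, which was Hprt with 68 Ring1B, 0 Dzip3, 3 ubH2A and 3 input reads. Polycomb genes had a distal peak at 7 of 33 (21.2%, 10.7% to 37.8%), but 27 of their 43 peaks formed an array upstream of Ezh2. Cbx8, a PRC1 subunit, had 9 distal peaks with 1540 Ring1B, 209 Dzip3, 247 ubH2A and 44 input reads. Since 1 library was measured, a share of a small list is uncertain within its interval, and the intervals of all lists but the homeobox, T-box and Fox genes reached 12.6%.

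**Figure D4:**
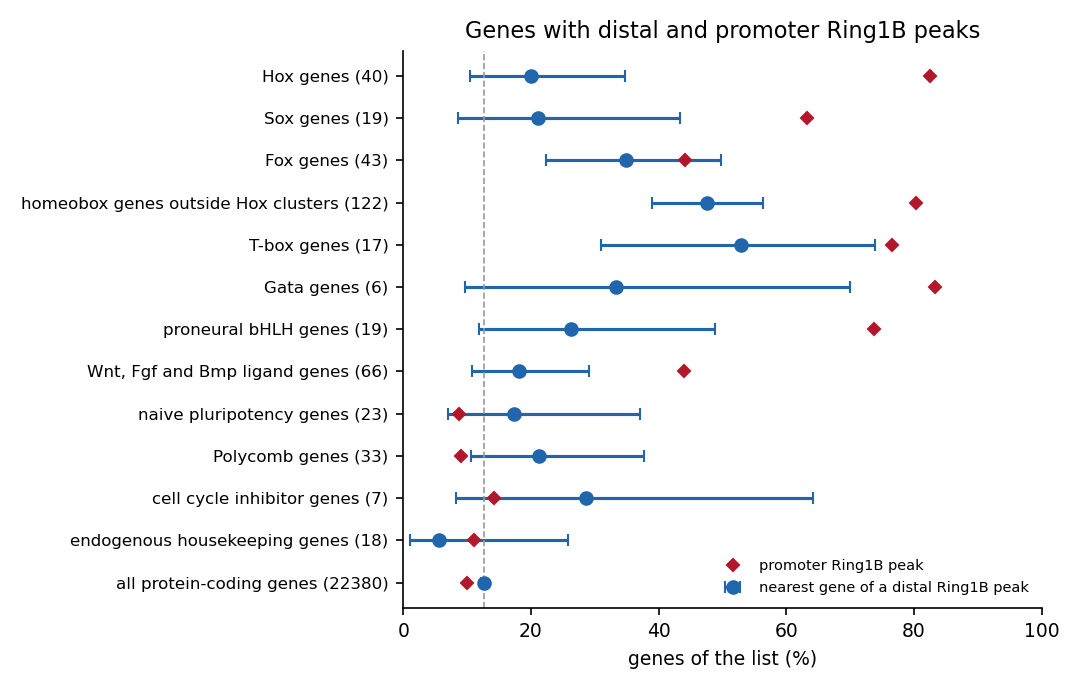
Percentage of the genes of each list that are nearest gene of a distal Ring1B peak (circles with 95% Wilson intervals) or have a promoter Ring1B peak (diamonds), with the number of genes in parentheses and a dashed line at the value of all protein-coding genes. Homeobox genes outside the Hox clusters reach 47.5% and T-box genes 52.9% for distal peaks, while Hox genes have 82.5% for promoter peaks and 20% for distal ones.

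The genes with the most distal peaks were those beside arrays of repeated sequence. The 5S rRNA array on chromosome 8 lies between Gas8 and Rhou, which are protein-coding neighbours of it and gave 57 and 32 distal peaks. The 5S rRNA is a small RNA of the ribosome made by RNA polymerase III from tandem genes. The annotation has 51 of its genes here (chr8:126062686-126147645), all on the minus strand and with starts a median of 1698 bp apart. In and within 4 kb of the array lay 87 distal peaks, of which 38 touched a 5S gene and 86 lay within 1 kb of one, and each of the 51 genes had a peak within 1 kb. Together these peaks held 41287 Ring1B, 9704 Dzip3, 11127 ubH2A and 1132 input reads. Per kb of peak this was 11.2 RPM for Ring1B, 2.55 for Dzip3, 2.32 for ubH2A and 0.328 for input. Scaled to library size, Ring1B was 34-fold over input, 4.38-fold over Dzip3 and 4.81-fold over ubH2A. The listed fold was 9.48 in the lowest and 251 in the highest of the 87 peaks. A Dzip3 peak overlapped 28 of them, a ubH2A peak 40 and an input peak 3, and Dzip3 was 7.77-fold and ubH2A 7.08-fold over input. The strongest peak on the Rhou side, whose sequence is given above, held 1795 Ring1B, 409 Dzip3, 424 ubH2A and 36 input reads, and that on the Gas8 side (chr8:126087123-126088251) held 1293, 263, 291 and 8. The array is 1.79% of the distal peaks and 4.53% of their Ring1B reads. Ring1B stood above the other libraries here, in peaks called on its own reads. The sequence is repeated, and how reads were shared out between the copies was not tested.

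Other arrays differed among themselves. Near Gm15319 (chr8:19858462-20037340) 134 distal peaks held 59552 Ring1B, 63586 Dzip3, 79580 ubH2A and 43849 input reads, with a median fold of 0.969 and an input peak at all 134. Beside it 4930467E23Rik had 54 peaks with a median fold of 1.28. At Vmn2r121 on the X chromosome, a vomeronasal receptor gene, 43 peaks had a median fold of 0.871, with 11125 Ring1B, 13303 Dzip3, 15011 ubH2A and 11423 input reads. C130026I21Rik on chromosome 1 had 52 peaks with a median fold of 2.23. Per kb the 4 libraries had 6.14 to 8.40 RPM at the first 3 of these genes, while C130026I21Rik had 6.12 to 6.36 in the ChIP libraries and 2.82 in input. In between stood Atg7 and Hrh1 on chromosome 6, with 75 and 53 distal peaks. The 75 peaks of Atg7 held 16143 Ring1B, 8896 Dzip3, 9293 ubH2A and 1837 input reads, a median fold of 7.37, and those of Hrh1 had a median fold of 8.0. The 27 peaks of Ezh2 (chr6:47601537-47637059) held 26491 Ring1B, 7077 Dzip3, 8486 ubH2A and 2798 input reads, with a median fold of 8.70. Per kb the Ezh2 peaks had medians of 14.3 RPM for Ring1B, 4.29 for Dzip3, 3.70 for ubH2A and 1.40 for input. Ring1B thus stood above the other libraries there too, again in peaks called on its own reads. The median fold at Ezh2 was below the 9.60 of all distal peaks. A Dzip3 peak overlapped 23 of the 27 peaks, a ubH2A peak 24 and an input peak 16. Of all distal peaks, 790 (16.2%) lay in the 10 windows of 1 Mb with the most Ring1B peaks. These had a median fold of 2.52 and an input peak in 60.6%, against 11.1 and 14.4% elsewhere.

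**Figure D5:**
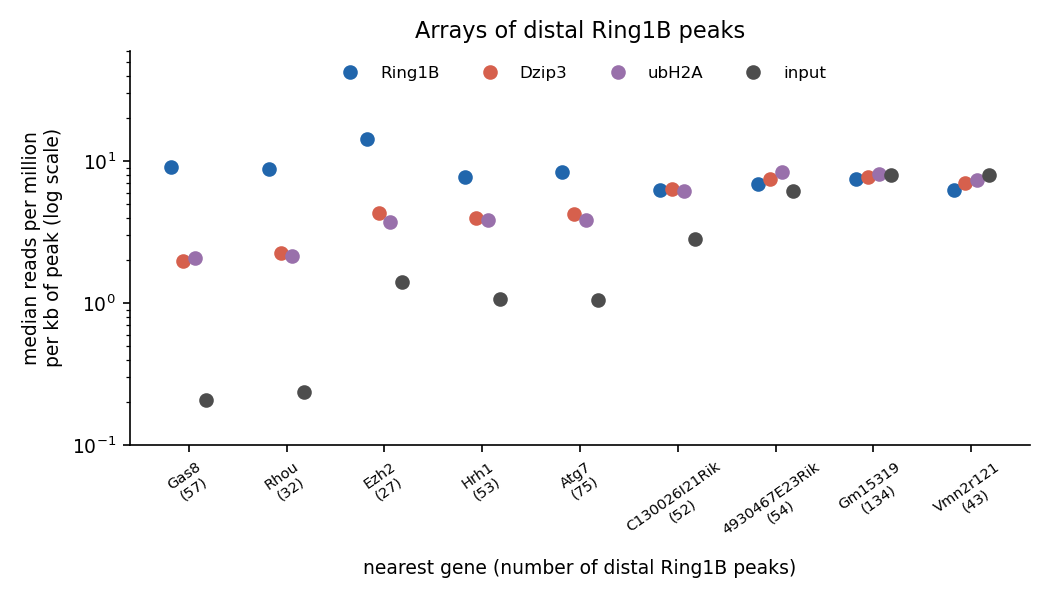
Median RPM per kb of peak (log scale) in the 4 libraries over the distal Ring1B peaks of the 8 genes with the most of them and of Ezh2, ordered by median fold over input, with the number of peaks in parentheses. Ring1B stands apart from the other libraries at Gas8 and Rhou beside the 5S rRNA array and at Ezh2 (14.3 against 4.29 for Dzip3), and the 4 libraries meet at Gm15319 and Vmn2r121.

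Of the genes that the study follows by name, 2 had distal peaks. Neurog1, a proneural gene, had its stronger one 6.50 kb upstream (chr13:56360020-56360559), with 185 Ring1B, 17 Dzip3, 17 ubH2A and 1 input reads and a CpG ratio of 0.88, and its strongest promoter peak held 713 Ring1B, 68 Dzip3, 42 ubH2A and 6 input reads. Eomes, a T-box gene of mesoderm and endoderm, had 1 peak 76.8 kb upstream with 52 Ring1B, 36 Dzip3, 88 ubH2A and 2 input reads, where ubH2A was above Ring1B and overlapped as a peak. At its promoter 185 Ring1B, 21 Dzip3, 14 ubH2A and 4 input reads were listed. T and Shank3 had promoter peaks but no distal peak, and Neurod1, Cdh2, Bspry, Rhox6, Stra8 and Acta1 had neither.

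Across chromosomes the density lay between 2.26 distal peaks per Mb on chromosome 3 and 8.27 on chromosome 8. The X chromosome had 275 distal peaks with a median fold of 1.70 and an input peak at 65.8%. At the limits of the distance rule, the peaks just inside lay at 4004 bp from 4930443G12Rik (122 Ring1B and 1 input reads) and 4007 bp from Gm6337 (62 and 38), and at 99852 bp from Kcna5 (303 and 12) and 99999 bp from Gm15319 (93 and 51). Just outside were peaks at 3989 bp from Gm15319 (155 and 133), 3990 bp from Acnat2 (36 and 96), 100076 bp from Pik3c2g (81 and 18) and 100078 bp from Mapk10 (70 and 10).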

How the data were processed

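ChIP-seq libraries of Ring1B, Dzip3, ubH2A and input DNA from E14 mES cells (1 each) were analysed from the deposited peak lists. Per the study's methods, the authors aligned the reads to mm9 with the Illumina Analysis Pipeline allowing 1 mismatch and called peaks separately in each library (Partek Genomics Suite, FDR 0.1). The authors deposited, for each peak, counts of reads of all 4 libraries in the peak, without normalisation. The deposited RPM values are the height of a peak in extended reads, which the authors scaled to library size. The deposited fold is a ratio of Ring1B to input reads. It was rebuilt, within 0.1%, for all 10119 peaks as reads plus 1 over 1.11 times input reads plus 1, whereas the implied library sizes have a ratio of 1.07. The deposited percent columns give the part of a peak covered by peaks of another library, and overlaps were read from them. The fragmentation differs between the sources, MNase in the methods and shearing in the labels, and the methods give the depth in uniquely mapped reads, a depth below the library sizes that the RPM values imply. Which reads the lists count at repeated sequence is therefore uncertain.

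Distances, exons, introns and TSSs were taken from the GENCODE annotation of mm9 (vM1), from the nearest edge of a peak. Densities are reads over library size and peak length. Shares have 95% Wilson intervals, single ratios exact ones, and both cover counting error only. With 1 library a group no test was possible and the spread between cultures is unknown. The genome had no repeat marks, so repeated sequence was measured by 31-base words that occur again in the genome. Background windows of 200 bases and sequenced bases were taken on a regular grid. A run-together row of the input list and another of the ubH2A list were not analysed, and 1 Dzip3, 2 ubH2A and 2 input peaks were not placed. At chromosome ends 4 distal peaks ran over by up to 220 bp and were clipped. Named peaks are the 8 highest by RPM without an input peak (1 per gene), the 4 highest with a promoter peak and the 4 highest without a peak of another library. Named genes are the 8 with the most distal peaks, the members of 12 lists with the most Ring1B reads, and genes followed by the study. Sequences are printed for 6 of the named peaks, and some named items are not reported here. Single peaks at the extremes of reads, the 5S array and Ezh2 were named after their values were seen. Members, lists and the split by repeated words were chosen with earlier results of these data known. Scripts, tested on simulated data, used matplotlib 3.10.9, numba 0.67.0, scipy 1.17.1, pandas 2.3.3 and numpy 2.4.6 under Python 3.11.15.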

Additional observations from a re-analysis of the deposited data

How the results depend on the processing

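Of 95 recomputed values, 36 stayed within the counting error, or within 1.5 times for counts, and 59 moved. No paired analysis was possible because each target has 1 library. With repeated centres left out, an alternative chosen after seeing the data, 2177 distal peaks remained, with 43.5% outside genes, 34.8% intronic, a fold of 13.7, a CpG ratio of 0.27, 35.4% with another peak within 10 kb, and Dzip3, ubH2A and input overlaps of 18.5%, 20.7% and 8.64%. The stronger 50% of the list by RPM gave 2449 peaks, 50.3% outside genes, 36.5% intronic, 26.9% paired, 233 genes with both, a fold of 9.10, 47.9% with a neighbour, and overlaps of 62.0%, 63% and 32.1%. Without peaks at input peaks, promoter peaks included, 23.5% were paired, against 24.9% with all promoter peaks kept. In that setting 46.2% lay outside genes, the fold was 13.1, the CpG ratio 0.22, 34.4% had a neighbour, and 29.5% and 29.9% overlapped Dzip3 and ubH2A peaks. Without the 10 densest windows, promoter peaks included, pairing was 26.2%, against 27.0% with all promoter peaks kept. The fold was then 11.1, the neighbour share 34.8%, and the overlaps 36.0%, 36.9% and 14.4%. With the TSSs of all annotated genes 54.7% lay outside genes, 35.7% were intronic, 27.2% paired, 39.1% had a neighbour, the CpG ratio was 0.18, and 43.3% and 20.6% overlapped Dzip3 and input peaks. With 1 TSS per gene, its 5′ end, 43.2% lay outside genes, the fold was 10.3, the CpG ratio 0.21, 46.7% had a neighbour, and 39.0% and 40.9% overlapped Dzip3 and ubH2A peaks. Transcripts of protein-coding genes alone gave 56.1% outside genes and 34.6% intronic, and the central base 41.9% intronic. Requiring 50% of the length covered gave overlaps of 37.9%, 40.9% and 19.5%. A neighbour within 5 kb was found for 39.6% and within 20 kb for 51.2%, and for 25.4% after peaks within 1 kb were merged. With a promoter peak within 2 kb 27.0% were paired. Within 10 kb it was 50.04% and 1170 genes, where by construction distal peaks at 4 to 10 kb count as their own promoter peak. Any gene within 100 kb gave 44.1% and 1086 genes. For the other alternatives that moved a value, the cause was not tested. The depth of 1 library limits each peak to its own read counts.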
